A study of Mus musculus with 36 samples.

Results

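Wild type mouse embryonic fibroblasts were compared between time 6 and time 0 of a time course. The members of the comparison were taken from the sample labels alone. They were 4 arrays of wild type cells at time 6 and 4 at time 0, 8 of the 36 arrays of the series, which also holds wild type cells at other times and cells without PKBa (the kinase encoded by Akt1). All genes with 1 gene per probe set and a signal above the lowest levels were compared. The fibroblasts came from 13.5-day embryos of crosses between heterozygous PKBa mice, after the head and inner organs had been removed, and the protocol gives the cells as kept in culture medium with foetal serum over many passages. The title of the series speaks of treatment with plain medium (DMEM). The protocol also describes a medium for adipocyte formation, with isobutylmethylxanthine, dexamethasone, insulin, biotin and pantothenate on cells past confluence. The labels do not say which of these media the arrays received, and give the times without a unit.

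The deposited value of a gene on an array is a signal on a linear scale. Medians of the 8 arrays lay between 138 and 143. Precision is limited by how few arrays there are. Arrays of replicates 1 and 2 of a group, and of replicates 3 and 4, correlated at 0.993 to 0.997 within a pair and at 0.961 to 0.967 between pairs. The 2 arrays of each pair were therefore averaged, and the test rests on 2 pair averages against 2. The labels do not say that replicates came from separate cultures, so p-values measure the spread between these samples, which may be technical. Fibroblast markers were high in sum: their summed signal was 43836 to 47927 at time 0 and 38991 to 42404 at time 6 (7 of 7 genes read). Single members differed from this. Pdgfrb was at 77.3 to 92.3 at time 6. Thy1 read 2391, 2488, 611 and 587 at time 0 and 2085, 1936, 448 and 479 at time 6, lower in replicates 3 and 4. The mesothelial marker Upk3b was also high, at 4804, 4911, 5811 and 6055 at time 0 and 3669, 3311, 4746 and 5219.6 at time 6, and so was Wt1, at 649, 638, 865 and 993 at time 0 and 670.5, 709, 1039 and 1240.2 at time 6. Upk3b had a log2 difference of -0.36 ± 0.17 (adjusted p = 0.21) and Wt1 of 0.19 ± 0.25 (adjusted p = 0.67). The other mesothelial marker on the array, Msln, was lower and not among the genes tested. It read 237, 254, 219 and 182 at time 0 and 278, 229, 213 and 156 at time 6. Of 3 adipocyte markers on the array, Adipoq and Lep stayed at or below 33.5 on all 8 arrays. Fabp4 read 34.4, 36.5, 83.8 and 67.2 at time 0 and 38.1, 42.0, 83.7 and 77.6 at time 6, higher in replicates 3 and 4 at both times. Markers of macrophages, epithelium, nerve and red blood cells summed to no more than 560.2, 469, 481 and 113 on any of these arrays. Skeletal muscle markers summed to 391 to 588 at time 0 and 521 to 619 at time 6, most of it from Des, which reached 382. The summed signal of 6 endothelial markers was 615 to 672 at time 0 and 993 to 1253 at time 6, of which Kdr gave 401 to 446 and 771 to 978. Their part in the results was not tested.

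As background, 3 of the agents named in the protocol act on well-studied gene programmes. Dexamethasone activates the glucocorticoid receptor, which binds DNA at glucocorticoid response elements and switches on genes such as Fkbp5, Per1, Tsc22d3 and Sgk1. Isobutylmethylxanthine blocks the breakdown of cyclic AMP, which acts through the factor CREB on genes such as Nr4a1, Crem and Dusp1, while insulin acts through its receptor on the PI3 kinase and Akt pathway. In fibroblasts the factor SRF, which reads the state of the actin cytoskeleton, drives contractile genes through CArG boxes.

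Time 6 differed from time 0 in many genes, and more of them fell than rose. Of 7436 genes tested, 886 (11.9%) passed at an adjusted p under 0.05, 314 (4.22%) higher and 572 (7.69%) lower at time 6. Of all tested genes, 60 (0.807%) rose and 99 (1.33%) fell by at least 2-fold. For all 886 the sign was shared by both replicate sets, as it was for 6148 of the 7436 tested genes, and a pass on 2 pair averages against 2 nearly requires it. For 884 of them the 4 arrays of time 6 lay wholly above or wholly below those of time 0. Such separation was found for 2782 (37.4%) of all tested genes. In each sentence below a log2 difference is time 6 minus time 0 on log2(signal + 32), ± its standard error, which understates the change of genes with a low signal.

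Replicate sets paired the arrays: arrays of the same number deviated from their group means together, with correlations of 0.651 to 0.705 between time 0 and time 6. The best match at time 6 was always of the same set, though not always of the same number. Replicate 2 of time 0 matched replicate 1 of time 6 best. With the replicate set as a block within genotype, here called the blocked fit, 2393 genes (32.2%) passed, 957 (12.9%) higher and 1436 (19.3%) lower, including all 886. The share of higher genes among those that passed was 35.4%, 39.99% in the blocked fit and 47.4% after quantile normalization, where 1120 genes (15.1%) passed, 531 (7.14%) higher and 589 (7.92%) lower. Quantile normalization moved the median difference over all tested genes from -0.0055 to 0.035.

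**Figure D1:**
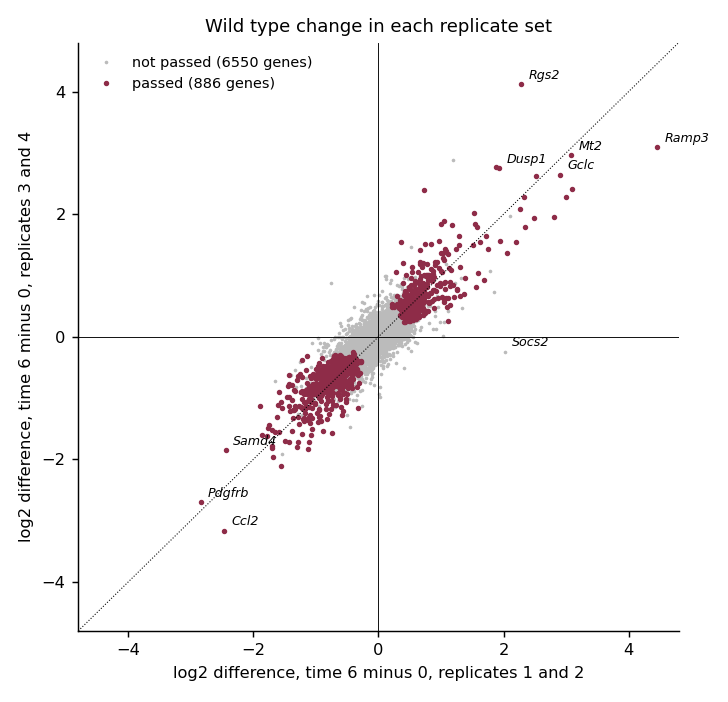
Log2 difference of each tested gene between time 6 and time 0 in wild type cells, in replicates 1 and 2 (horizontal axis) and in replicates 3 and 4 (vertical axis). Red points are the 886 genes that passed and grey points the other 6550; Ramp3 and Rgs2 lie at the upper right, Ccl2 and Pdgfrb at the lower left, and no red point lies in a quadrant of opposite signs.

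The highest rises were those of Ramp3 and Rgs2. Ramp3, which escorts the calcitonin-type receptor to the cell surface and shapes its ligand preference, had a signal of 176, 185, 143 and 149 at time 0 and 4679, 4575, 1522 and 1451 at time 6. All arrays at time 6 lay far above all at time 0, and at time 6 replicates 1 and 2 lay above replicates 3 and 4. The log2 difference was 3.77 ± 0.45 (adjusted p = 3.8e-04). Rgs2, which shortens signalling by G proteins, had a signal of 114, 97.1, 54.3 and 69.5 at time 0 and 631, 644, 1644 and 1546 at time 6, a difference of 3.20 ± 0.44 (adjusted p = 9.5e-04). Here replicates 3 and 4 were the higher ones at time 6. Gclc, the catalytic subunit of the enzyme that limits glutathione synthesis, read 307, 309, 281 and 313 at time 0 and 2484, 2562, 1907 and 2154 at time 6. Its difference was 2.78 ± 0.18 (adjusted p = 5.0e-06), with little spread within either group.

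Cd24a, a small mucin-like surface protein, read 211, 226, 354 and 330.0 at time 0 and 1868, 2079, 1925 and 1659 at time 6 (2.64 ± 0.30, adjusted p = 2.8e-04). The membrane protein Tmem119 read 989, 999, 819 and 859 at time 0 and 6147, 5537, 5339.8 and 5368 at time 6 (2.57 ± 0.20, adjusted p = 1.2e-05). In both the groups were wide apart, though only genes without overlap between the times were chosen for the highest and lowest differences. Versican, Vcan, a large proteoglycan that binds hyaluronan, read 433, 404, 493 and 544 at time 0 and 2253, 2229, 2545 and 2705 at time 6 (2.30 ± 0.21, adjusted p = 5.9e-05). Uap1, which makes the UDP-N-acetylglucosamine used in glycans, rose by 2.17 ± 0.16 (adjusted p = 1.0e-05). Pmvk, a kinase of the mevalonate pathway, rose by 2.38 ± 0.34 (adjusted p = 0.0012), and in replicates 1 and 2 its arrays at time 6 reached 1505 and 1554 against 683 and 552 in the other pair. Adamts1, a protease that cleaves versican, read 209, 205, 217 and 267 at time 0 and 1232, 1123, 934 and 886 at time 6 (2.06 ± 0.16, adjusted p = 1.5e-05).

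Among the genes that fell, Ccl2, the chemokine that attracts monocytes, had the lowest difference. Its signal was 1043, 949, 2088 and 1175 at time 0 and 155, 152, 149.8 and 143 at time 6 (-2.82 ± 0.35, adjusted p = 4.6e-04). The 4 arrays at time 6 were close together, while those at time 0 were spread. Pdgfrb, a receptor for platelet-derived growth factor, read 758, 765, 708 and 747 at time 0 and 77.3, 80.0, 92.3 and 78.3 at time 6 (-2.77 ± 0.30, adjusted p = 2.1e-04), a fall of like size in both replicate sets. Samd4, a repressor that binds RNA, fell by 2.15 ± 0.44 (adjusted p = 0.0089), Nrep, a small neuronal-regeneration protein, fell by 1.83 ± 0.40 (adjusted p = 0.013), and Pawr, a pro-apoptotic protein, fell by 1.63 ± 0.15 (adjusted p = 4.7e-05). Rhoq, a small GTPase, read 1819, 1743, 1589.9 and 1547 at time 0 and 509, 543, 576 and 481 at time 6 (-1.61 ± 0.17, adjusted p = 1.7e-04), and Elk3, a partner of SRF, fell by 1.60 ± 0.34 (adjusted p = 0.011). Gask1b, a Golgi-associated protein, fell by 1.60 ± 0.47 (adjusted p = 0.044), but did not pass without wild type time 6 replicate 4 (log2 difference -1.48, adjusted p = 0.054).

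**Figure D2:**
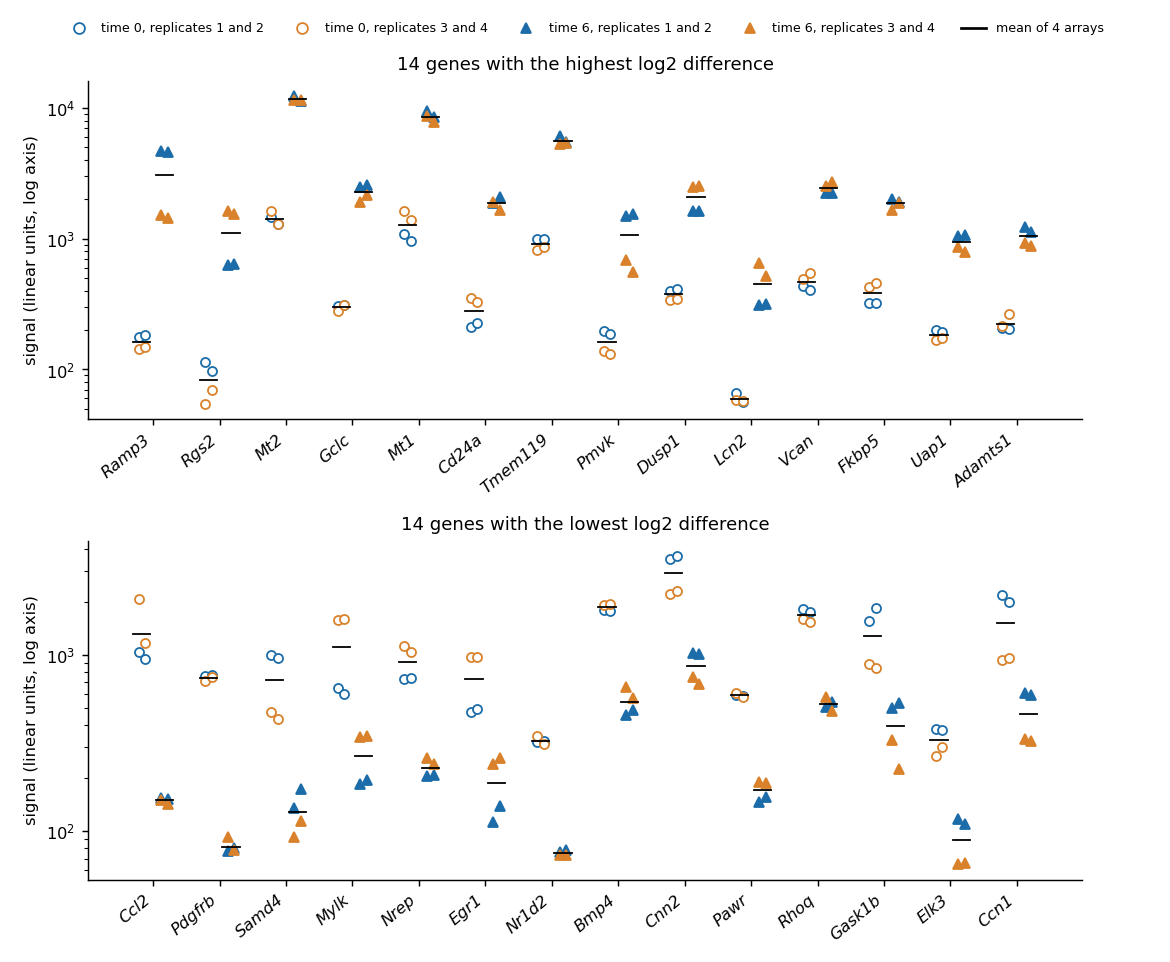
Signal on each wild type array (log axis) for the 14 genes with the highest and the 14 with the lowest log2 difference among those that passed with the same sign in both replicate sets. Open circles are time 0, filled triangles time 6, blue replicates 1 and 2, and orange replicates 3 and 4. Black bars are the means of 4 arrays. Only genes without overlap between the arrays of the 2 times could be chosen, so their separation is set by the choice.

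Targets of the glucocorticoid receptor, with the metallothioneins, rose: 10 of 17 tested genes passed as higher and none as lower, against 4.22% and 7.69% of all tested genes, with a median difference of 0.90 against -0.0055. Mt2, a metallothionein, which binds zinc and copper, read 1466, 1293, 1629 and 1303 at time 0 and 12367, 11411, 11608 and 11578 at time 6 (3.02 ± 0.22, adjusted p = 8.2e-06), and Mt1 rose by 2.75 ± 0.19 (adjusted p = 8.2e-06). Fkbp5, a chaperone partner that dampens the receptor, read 321, 322, 426 and 457 at time 0 and 2019, 1905, 1669.7 and 1886 at time 6 (2.21 ± 0.14, adjusted p = 5.0e-06). Dusp1, a phosphatase of MAP kinases, read 399.7, 411, 342 and 347 at time 0 and 1645, 1622, 2478 and 2537 at time 6 (2.34 ± 0.20, adjusted p = 3.5e-05). These 4 genes lay apart between the times in every array. They are among the highest differences named above, for which only genes without overlap were chosen, so this separation is set by the choice. Tsc22d3, the glucocorticoid-induced leucine zipper, read 286, 266, 228 and 212 at time 0 and 706, 625, 833 and 889 at time 6 (1.502 ± 0.26, adjusted p = 0.0033), and the clock gene Per1 197, 219, 206 and 228 at time 0 and 700.3, 638, 794 and 921 at time 6 (1.69 ± 0.12, adjusted p = 8.2e-06). Other probe sets of Tsc22d3 had log2 differences of 1.76 and 0.38. Lcn2, an iron-siderophore binding lipocalin, rose by 2.32 ± 0.26 (adjusted p = 2.5e-04) from signals of 66.0, 56.8, 58.8 and 57.8, which are low. The kinase Sgk1 (1.27 ± 0.32, adjusted p = 0.024) and glutamine synthetase Glul (0.89 ± 0.16, adjusted p = 0.0053) rose as well and were chosen after their values were seen. Ddit4, an inhibitor of mTOR signalling, rose by 0.84 ± 0.24 (adjusted p = 0.042), though it did not pass without wild type time 6 replicate 1 (0.79, adjusted p = 0.06).

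Other known targets did not pass, among them Klf9 (-0.06 ± 0.14, adjusted p = 0.82), Nfkbia (-0.25 ± 0.21, adjusted p = 0.50), Errfi1 (0.54 ± 0.25, adjusted p = 0.19), Zbtb16 (0.29 ± 0.13, adjusted p = 0.18) and Angptl4 (0.02 ± 0.17, adjusted p = 0.97). Klf15, a factor of adipogenesis that was too low for the test, read 52.4, 53.04, 56.4 and 56.7 at time 0 and 83.7, 74.9, 75.5 and 100.2 at time 6, without overlap. The gene of the receptor itself, Nr3c1, was lower at time 6 (475, 477, 477 and 501 at time 0 and 289.7, 320.1, 316 and 368 at time 6, -0.54 ± 0.11, adjusted p = 0.011).

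Targets of cyclic AMP and CREB also rose, in 6 of 11 tested genes (54.5%), with none lower, against 4.22% and 7.69% of all tested genes. The median difference was 0.61. The 6 were Rgs2, Dusp1, Per1, the phosphodiesterase Pde4b (0.96 ± 0.26, adjusted p = 0.034), the CREB-family repressor and activator gene Crem (0.68 ± 0.18, adjusted p = 0.033) and Fos (0.44 ± 0.12, adjusted p = 0.038). Dusp1 and Per1 were also counted among the glucocorticoid targets above, so the lists share these genes. For Pde4b the difference was 1.55 in replicates 3 and 4 and 0.37 in replicates 1 and 2. Fos did not pass without wild type time 6 replicate 2 (0.37, adjusted p = 0.059). Nr4a1, an orphan nuclear receptor and a classical target, read 417, 431, 376 and 398 at time 0 and 437, 508, 549 and 566 at time 6 (0.32 ± 0.25, adjusted p = 0.47), and Nr4a2 88.6, 81.2, 65.8 and 71.1 at time 0 and 167, 181, 92.5 and 79.7 at time 6 (0.52 ± 0.19, adjusted p = 0.10). Nr4a2 passed in the blocked fit (adjusted p = 0.015). In the same cells at time 2, of which only replicates 1 and 2 exist, Nr4a1 read 5694 and 4886 and Nr4a2 1067 and 1274. In the blocked fit 9 of the 11 genes passed as higher, against 12.9% of all tested genes.

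Immediate early genes, the first wave after a stimulus, moved both ways. Of 24 tested genes 3 (12.5%) were higher at time 6 and 7 (29.2%) lower, against 4.22% and 7.69% of all tested genes. Their median was -0.24. Egr1, a zinc-finger factor, read 473, 493, 968 and 974 at time 0 and 113, 139, 242 and 261 at time 6 (-1.77 ± 0.36, adjusted p = 0.009), below time 0 in all arrays. Klf6 fell by 1.52 ± 0.19 (adjusted p = 4.6e-04), the matrix-bound signalling protein Ccn1 fell by 1.59 ± 0.42 (adjusted p = 0.03) and SRF's own gene, Srf, fell by 1.03 ± 0.13 (adjusted p = 4.6e-04). Another probe set of Srf changed little, from a mean of 374 at time 0 to 339 at time 6 (log2 difference -0.13). Klf2 fell by 0.80 ± 0.22 (adjusted p = 0.035), and without wild type time 6 replicate 2 it did not pass (-0.72, adjusted p = 0.053). Junb (-0.07 ± 0.17, adjusted p = 0.84) lay at 289.6, 255, 264 and 265 at time 6, against 1359 and 1574 at time 2 in replicates 1 and 2.

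Promoter sequences are shown for 5 genes, chosen because each holds a match to an element known for its class of genes. The sequences were taken from RefSeq (build GRCm38.p6), 250 bases up to the listed start, 5′ to 3′ on the strand of the gene. The genes were also chosen after their values were seen. Whether the elements acted in these cells was not tested, and sequences picked for a match cannot show it. In the search below, the metal element core stood in 31.9% of the genes that rose and 31.9% of all tested genes. Capitals mark the match: the glucocorticoid response element (AGAACA and TGTTCT, 3 bases apart) in Sgk1, the cyclic AMP response element TGACGTCA in Dusp1, the core of the metal response element TGCGCNC in Mt2, and the CArG box in Srf and in Cnn2, the gene of calponin-2. The windows are, in turn, chr10:21993640-21993889, plus strand; chr17:26508473-26508722, minus strand; chr8:94172368-94172617, plus strand; chr17:46556163-46556412, minus strand; and chr10:79988350-79988599, plus strand.
Sgk1: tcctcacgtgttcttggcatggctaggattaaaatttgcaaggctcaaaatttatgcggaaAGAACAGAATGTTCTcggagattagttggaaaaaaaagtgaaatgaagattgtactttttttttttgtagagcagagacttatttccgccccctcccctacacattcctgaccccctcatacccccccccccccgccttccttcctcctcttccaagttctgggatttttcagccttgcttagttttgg
Dusp1: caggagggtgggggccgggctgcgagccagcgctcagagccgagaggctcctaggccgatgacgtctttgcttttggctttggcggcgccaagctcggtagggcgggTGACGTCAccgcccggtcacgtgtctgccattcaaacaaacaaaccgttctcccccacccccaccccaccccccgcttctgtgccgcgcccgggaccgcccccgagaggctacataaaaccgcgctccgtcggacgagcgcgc
Mt2: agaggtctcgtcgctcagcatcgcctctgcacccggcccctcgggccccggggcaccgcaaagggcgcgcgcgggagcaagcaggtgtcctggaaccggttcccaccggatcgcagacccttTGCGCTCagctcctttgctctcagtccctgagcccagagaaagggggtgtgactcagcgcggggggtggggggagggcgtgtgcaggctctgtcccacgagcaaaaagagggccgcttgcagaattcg
Srf: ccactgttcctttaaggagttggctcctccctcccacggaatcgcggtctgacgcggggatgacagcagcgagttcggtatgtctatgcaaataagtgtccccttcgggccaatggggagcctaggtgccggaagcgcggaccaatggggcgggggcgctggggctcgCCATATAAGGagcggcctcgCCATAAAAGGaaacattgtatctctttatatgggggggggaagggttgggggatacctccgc
Cnn2: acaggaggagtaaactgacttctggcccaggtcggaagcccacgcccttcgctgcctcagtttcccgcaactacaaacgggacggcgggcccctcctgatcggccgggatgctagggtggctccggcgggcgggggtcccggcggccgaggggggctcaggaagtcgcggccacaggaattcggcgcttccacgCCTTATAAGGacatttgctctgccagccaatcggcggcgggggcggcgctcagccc

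The elements were searched on both strands in windows of 300 bases, 250 before to 50 after each listed start, and a gene counted if any of its starts had a match. Of 7436 tested genes 6056 had a window, 257 of those that rose and 460 of those that fell. The full glucocorticoid element was found in 1 tested gene, Sgk1, which has 6 listed starts, and in 0.00913% of all 32851 windows of the table. The full cyclic AMP element was found in 16 (6.23%) of the genes that rose, 12 (2.61%) of those that fell and 222 (3.67%) of all tested genes, and in 1.79% of all windows. Its short form TGACG, which the full form contains, stood in 44.0%, 29.4% and 37.4%, and in 20.8% of all windows. The CArG box stood in 6 (2.34%) of the genes that rose, 16 (3.48%) of those that fell and 95 (1.57%) of tested genes, and in 1.63% of all windows. Srf and Cnn2, printed above, were among the 16. The metal element core, at 31.9%, 27.4%, 31.9% and 15.4%, and the E-box CACGTG, at 10.1%, 13.7%, 12.4% and 7.15%, follow in the same order. These are matches of letters in short windows and were not tested.

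Of 22 tested contractile and actin genes, 11 (50%) fell and 1 (4.55%) rose, with a median of -0.56. Over all tested genes 7.69% fell and 4.22% rose. In the blocked fit 17 were lower and 2 higher, against 19.3% and 12.9% of all tested genes. Mylk, the kinase that activates smooth muscle and non-muscle myosin, read 648, 603, 1583 and 1604 at time 0 and 185, 195, 344 and 346 at time 6 (-1.84 ± 0.37, adjusted p = 0.0086); replicates 3 and 4 were higher than replicates 1 and 2 at both times. Cnn2 read 3520.0, 3624, 2209.7 and 2301 at time 0 and 1029.7, 1006, 748 and 684 at time 6 (-1.70 ± 0.26, adjusted p = 0.0016). The focal adhesion genes zyxin, Zyx (-0.96 ± 0.13, adjusted p = 8.4e-04), and talin, Tln1 (-0.92 ± 0.12, adjusted p = 5.4e-04), fell, as did the cytoplasmic actins Actg1 (-0.70 ± 0.11) and Actb (-0.39 ± 0.09) and the myosin heavy chain Myh9 (-0.68 ± 0.19). Another probe set of Zyx fell by less, from a mean of 723 at time 0 to 624 at time 6 (log2 difference -0.20). The gene that rose was the fibronectin receptor subunit Itga5 (0.79 ± 0.15, adjusted p = 0.0066). The smooth muscle markers Acta2 and Tagln had differences of -0.48 ± 0.16 and -0.56 ± 0.17 (adjusted p = 0.072 and 0.057), and passed in the blocked fit (adjusted p = 0.016 and 0.014).

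Chemokines and targets of NF-kB were lower in 5 of 15 tested genes (33.3%) and higher in none, against 7.69% and 4.22% of all tested genes. Beside Ccl2 these were Csf1, the growth factor of macrophages (2527, 2740.0, 1998 and 2264 at time 0 and 957, 956, 651 and 604 at time 6; -1.57 ± 0.17, adjusted p = 2.2e-04), Vcam1, an adhesion molecule for leukocytes (1411, 1420.2, 1340.5 and 1387 at time 0 and 584, 534, 395 and 391 at time 6; -1.505 ± 0.17, adjusted p = 2.6e-04), Cxcl12 (-0.70 ± 0.17, adjusted p = 0.018) and the NF-kB subunit Relb (-0.76 ± 0.12, adjusted p = 0.0025). Each lay lower on all 4 arrays of time 6. Receptor tyrosine kinases were lower in 6 of 17 tested genes (35.3%) and higher in 1 (5.88%). Beside Pdgfrb, Pdgfra read 2011, 1787, 1466 and 1684 at time 0 and 1048, 1111, 628 and 650.2 at time 6 (-1.03 ± 0.24, adjusted p = 0.017) and the ephrin receptor Epha2 fell by 0.66 ± 0.17 (adjusted p = 0.027). Kdr, a receptor for VEGF, was the gene of this list that rose (435, 446, 413 and 401 at time 0 and 906, 978, 771 and 775 at time 6; 0.96 ± 0.21, adjusted p = 0.012). Of 16 tested nuclear receptors 4 (25%) were lower and 1 (6.25%) higher, the vitamin D receptor Vdr (0.87 ± 0.25, adjusted p = 0.042). Vdr did not pass without wild type time 0 replicate 3 (0.81, adjusted p = 0.06). The aryl hydrocarbon receptor Ahr, which senses planar aromatic compounds, read 816, 799, 1112 and 990.0 at time 0 and 241, 252, 349 and 324 at time 6 (-1.57 ± 0.28, adjusted p = 0.0041), and was the gene of 4 in its list that passed.

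The circadian clock genes that passed moved in opposite directions. Per1 rose, as above, and Nr1d2, a repressor that acts against the activator arm of the clock, read 322, 324, 348 and 314 at time 0 and 76.5, 77.8, 73.3 and 73.3 at time 6 (-1.74 ± 0.28, adjusted p = 0.0022), with both replicate sets alike. Its relative Nr1d1 fell by 0.44 ± 0.12 (adjusted p = 0.033), but not without wild type time 0 replicate 1 (-0.38, adjusted p = 0.056). In all 1 of 14 tested clock genes (7.14%) rose and 2 (14.3%) fell, against 4.22% and 7.69% of all tested genes. In the blocked fit 6 rose and 5 fell, against 12.9% and 19.3% of all tested genes. That fit added Per2 (0.71 ± 0.23, adjusted p = 5.4e-04) and Nfil3 (0.61 ± 0.18, adjusted p = 0.0043) among the higher and Bhlhe40 (-0.92 ± 0.32, adjusted p = 0.0011) among the lower. Arntl (0.17 ± 0.16, adjusted p = 0.57) and Clock (-0.07 ± 0.11, adjusted p = 0.73), the activator pair, passed in neither fit.

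Of 17 tested adipogenic regulators none rose and 2 (11.8%) fell, against 7.69% of all tested genes: Klf2 and the stress factor Ddit3 (-0.80 ± 0.16, adjusted p = 0.0077). The early factors Cebpb and Cebpd, which open the adipogenic programme, read 1834, 1972, 2949 and 2956 at time 0 and 3321, 2545, 4071 and 3978 at time 6 and 367, 371, 882 and 944 at time 0 and 974, 979, 1284 and 1253 at time 6. Their differences of 0.52 ± 0.26 and 0.90 ± 0.34 did not pass (adjusted p = 0.22 and 0.11) but passed in the blocked fit (adjusted p = 0.0034 and 0.0021). Cebpa (-0.02 ± 0.19, adjusted p = 0.97) had a difference of 0.24 in replicates 1 and 2 and of -0.27 in replicates 3 and 4. Pparg, the master regulator, was too low for the test, at 48.9, 47.5, 45.6 and 55.0 at time 0 and 54.2, 51.6, 50.04 and 57.8 at time 6. Among 9 tested adipocyte markers, Scd1, which makes monounsaturated fatty acids, rose (2695, 2613, 1508 and 1590.1 at time 0 and 5451, 5259, 5411 and 5869.7 at time 6; 1.42 ± 0.21, adjusted p = 0.0013) and Plin2, which coats lipid droplets, fell (1164, 1181, 1335 and 1423 at time 0 and 426, 433, 494 and 420.1 at time 6; -1.46 ± 0.11, adjusted p = 1.2e-05).

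No gene of 21 in the insulin and IGF pathway passed. In the blocked fit 2 were higher and 5 lower, against 12.9% and 19.3% of all tested genes. Akt1 read 1334, 1354, 903 and 1101 at time 0 and 1082, 991, 988 and 1041 at time 6 (-0.17 ± 0.20, adjusted p = 0.63) and Akt2 had a difference of -0.20 ± 0.15 (adjusted p = 0.42). The arrays of the 2 times overlapped for Akt1. Irs1, the first adaptor below the insulin receptor, read 1840.2, 1738, 869 and 915 at time 0 and 868, 855, 424 and 419 at time 6; its difference of -1.03 ± 0.56 did not pass (adjusted p = 0.27), and passed in the blocked fit (adjusted p = 1.9e-04), with differences of -1.03 in replicates 1 and 2 and -1.03 in replicates 3 and 4. The receptor Igf1r was similar (-0.64 ± 0.30, adjusted p = 0.20, and adjusted p = 2.5e-04 blocked).

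In the matrix, versican rose while the adhesive glycoprotein Thbs1 fell (2983, 3258, 2074 and 2422 at time 0 and 1064, 1012, 1003 and 1107 at time 6; -1.31 ± 0.29, adjusted p = 0.013), and these were the members that passed of 24 matrix glycoproteins and proteoglycans. They were 4.17% of that list in each direction. Of 19 collagen chains 1 (5.26%) passed, the basement membrane chain Col4a2 (0.45 ± 0.12, adjusted p = 0.03). Over all tested genes 4.22% rose and 7.69% fell. Among 17 matrix proteases and their inhibitors 2 rose, Adamts1 and the inhibitor Timp1 (2499, 2465, 2381 and 2089 at time 0 and 6222, 5940.2, 6829 and 7206 at time 6; 1.46 ± 0.21, adjusted p = 0.0013), and 3 fell, among them Mmp11 (-1.27 ± 0.30, adjusted p = 0.017) and the aggrecanase Adamts5 (-0.88 ± 0.15, adjusted p = 0.0039). In the TGF-beta and BMP pathway 2 of 24 (8.33%) rose and 1 (4.17%) fell, against 4.22% and 7.69% of all tested genes. In the blocked fit 5 rose and 10 fell, against 12.9% and 19.3% of all tested genes. Bmp4, a ligand, read 1804, 1779.7, 1924 and 1939 at time 0 and 456, 487, 657 and 567 at time 6 (-1.73 ± 0.34, adjusted p = 0.0077), the decoy receptor Bambi rose by 0.83 ± 0.15 (adjusted p = 0.0043) and the activin-binding Fst by 1.19 ± 0.34 (adjusted p = 0.04). Fst did not pass without wild type time 0 replicate 1 (1.14, adjusted p = 0.051). In the Wnt pathway 1 of 18 (5.56%) rose, the receptor Fzd1 (0.93 ± 0.17, adjusted p = 0.005), and 3 (16.7%) fell. Those that fell were the agonist Rspo1 (-1.08 ± 0.18, adjusted p = 0.0029), Ccn4 (-1.01 ± 0.15, adjusted p = 0.0013) and the receptor Fzd2 (-0.78 ± 0.20, adjusted p = 0.026).

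Among genes of growth and division the lists differed, beside 4.22% higher and 7.69% lower over all tested genes. In the blocked fit these shares were 12.9% and 19.3%. None of 23 mitosis genes passed (1 was higher in the blocked fit, Cdc20). Of 29 DNA replication genes 4 (13.8%) rose, including the flap nuclease Fen1 (0.79 ± 0.15, adjusted p = 0.0061) and the ribonucleotide reductase subunit Rrm2 (0.76 ± 0.21, adjusted p = 0.034), and 1 fell. The D cyclins differed among themselves: Ccnd3 rose (1071, 1083, 989.9 and 1061 at time 0 and 1933, 1806, 2028 and 2090.3 at time 6; 0.88 ± 0.13, adjusted p = 0.0015), Ccnd2 fell (3608, 3758, 3652 and 3878 at time 0 and 2666, 2479.8, 1851 and 1844 at time 6; -0.76 ± 0.20, adjusted p = 0.029), and Ccnd1 did not pass (-0.80 ± 0.52, adjusted p = 0.37; blocked adjusted p = 0.0072). These were 1 higher and 1 lower of 13 genes of the G1 list. Of 30 ribosome biogenesis genes, 5 (16.7%) rose, 15 in the blocked fit, and none fell, among them Rrp12 (0.77 ± 0.17, adjusted p = 0.012), Nolc1 (0.74 ± 0.14, adjusted p = 0.0073) and Bysl (0.73 ± 0.16, adjusted p = 0.013). None of 25 cytosolic ribosomal protein genes and none of 32 oxidative phosphorylation subunits passed; in the blocked fit 2 and 1 were lower.

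Chaperones of the endoplasmic reticulum and their regulators rose in 4 of 21 tested genes (19.0%) and fell in none. In the blocked fit 12 rose and 1 fell. Over all tested genes 4.22% rose and 7.69% fell, and 12.9% and 19.3% in the blocked fit. The 4 were the factor Xbp1 (0.64 ± 0.14, adjusted p = 0.012), Hyou1 (0.54 ± 0.11, adjusted p = 0.011), Syvn1 (0.49 ± 0.14, adjusted p = 0.042) and Hspa5 (0.47 ± 0.13, adjusted p = 0.039). Without wild type time 6 replicate 3 Hspa5 gave 0.42 (adjusted p = 0.053), and without wild type time 0 replicate 3 Syvn1 gave 0.43 (adjusted p = 0.057). Amino acid and ATF4 response genes fell in 5 of 29, 12 in the blocked fit, with the pseudokinase Trib3 (727, 768, 547 and 505 at time 0 and 226, 219, 213 and 241 at time 6; -1.36 ± 0.18, adjusted p = 6.7e-04), Chac1 (-0.96 ± 0.20, adjusted p = 0.0098), Nupr1 (-1.12 ± 0.28, adjusted p = 0.022) and Ddit3, and 1 rose, Ddit4. Of 11 cytosolic heat shock genes 2 rose and 1 fell: Hspb1 rose (4071, 4641, 5165 and 5540.3 at time 0 and 12906, 14128, 15041 and 16261 at time 6; 1.59 ± 0.16, adjusted p = 1.2e-04) with Bag3 (0.59 ± 0.16, adjusted p = 0.032), and the small heat shock protein gene Cryab fell (-0.97 ± 0.16, adjusted p = 0.0024).

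The counts of the next lists stand beside 4.22% higher and 7.69% lower over all tested genes. Of 16 NRF2 targets Gclc and the sulfiredoxin gene Srxn1 (0.83 ± 0.15, adjusted p = 0.0043) rose, and the haem-degrading Hmox1 fell (-0.99 ± 0.23, adjusted p = 0.016). In cholesterol and fatty acid synthesis 5 of 26 (19.2%) were higher, including Pmvk, Scd1 and Hsd17b7 (0.93 ± 0.18, adjusted p = 0.0067), and 2 lower, Fads1 (-0.88 ± 0.18, adjusted p = 0.0097) and Fads2, a share of 7.69% like that of all tested genes. Its median was -0.22 in replicates 1 and 2 and 0.19 in replicates 3 and 4. In glucose uptake and glycolysis 4 of 18 fell: the enolase Eno2 (-1.07 ± 0.19, adjusted p = 0.0045) and the phosphofructokinases Pfkp (-0.85 ± 0.24, adjusted p = 0.039), Pfkl and Pfkm. Pfkl did not pass without wild type time 0 replicate 4 or time 6 replicates 2 or 4 (-0.54 to -0.49, adjusted p = 0.052 to 0.061), nor Pfkm without time 0 replicates 1 or 4 (-0.38 to -0.37, adjusted p = 0.052 to 0.065). Signalling feedback genes split evenly, 4 of 17 higher (Ramp3, Rgs2, Dusp1, Pde4b) and 4 lower, with the ERK-pathway inhibitor Spred2 (-0.87 ± 0.20) and the MAP kinase phosphatase Dusp6 (-0.80 ± 0.17) among the lower. The p53 targets gave 2 higher and 1 lower of 13, interferon-induced genes 1 higher of 9 (Bst2, 0.87 ± 0.23), prostaglandin genes 1 higher of 6 (the transporter Slco2a1, 1.01 ± 0.28), and iron genes 1 higher (Lcn2) and 1 lower of 11.

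**Figure D3:**
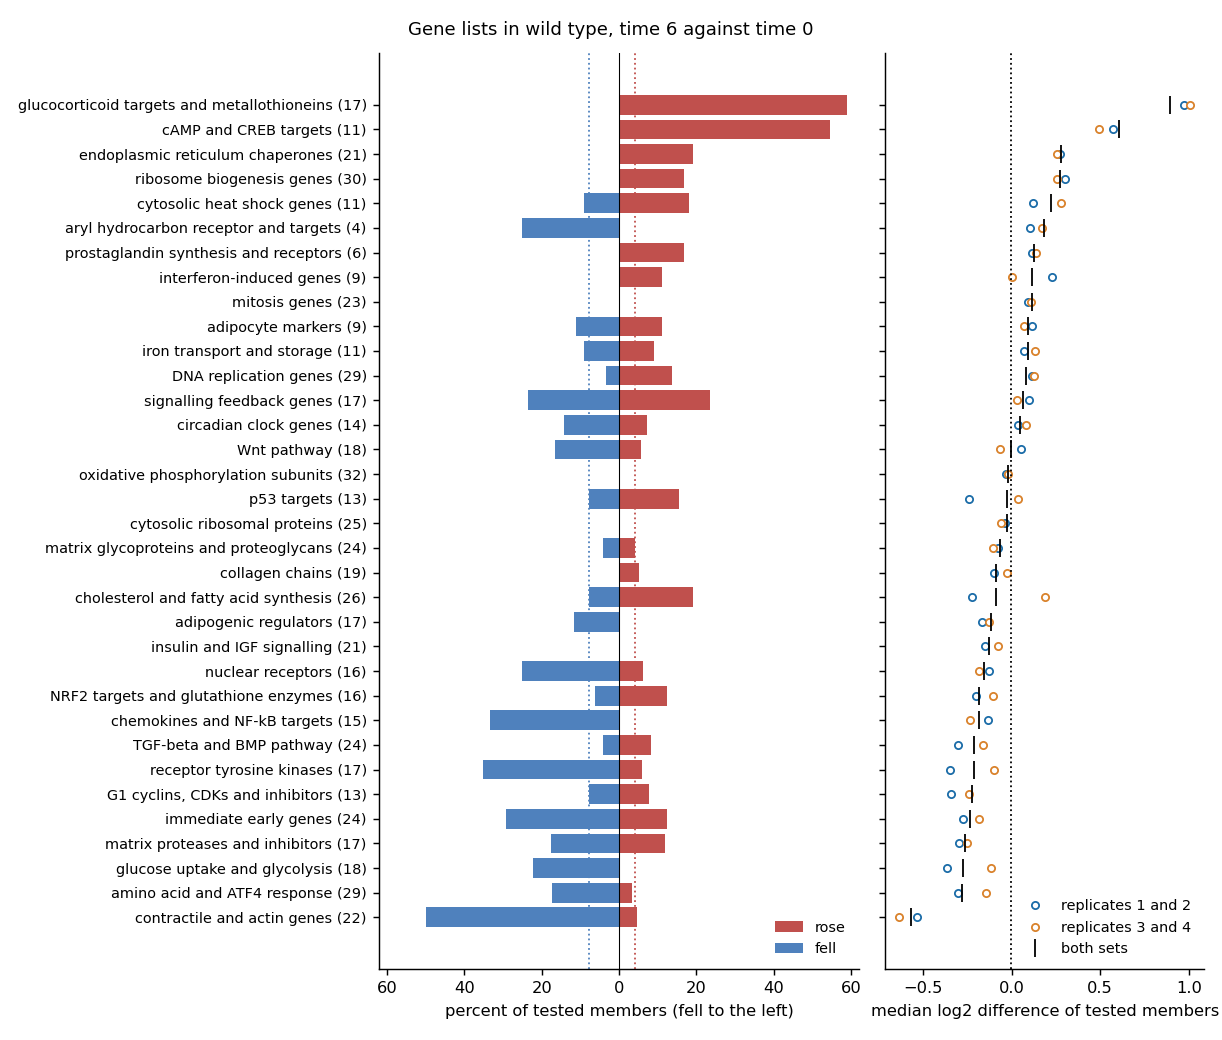
Left: percent of the tested members of each of 34 gene lists (number in brackets) that rose (red) or fell (blue) at time 6, with dotted lines at the shares over all tested genes, 4.22% and 7.69%. Right: median log2 difference of each list over both replicate sets (black) and in each set (blue and orange circles); glucocorticoid and cyclic AMP targets lie highest and contractile and actin genes lowest, in both sets.

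The time course sets time 6 in its place; all differences from time 0 share the same 4 arrays. In replicates 1 and 2, the 60 genes that rose at least 2-fold had their highest mean at time 6 in 33 cases, at time 2 in 15, at time 24 in 4 and at time 48 in 8. The 99 that fell at least 2-fold had their lowest mean at time 6 in 83 cases, at time 2 in 8, at time 24 in 2 and at time 48 in 6. Time 6 was used to choose these genes, which favours it. Over both sets, 21 of the 60 and 30 of the 99 were still at least 2-fold from time 0 in the same direction at time 24, and 25 and 20 at time 48. Cd24a was near its starting level again at time 24, with means of 280.3, 1883, 229 and 188 at times 0, 6, 24 and 48. Fkbp5 kept a higher level, with 382, 1870.1, 1147 and 1252. In replicates 1 and 2, Dusp1 had a mean of 4210.1 at time 2 and 1633 at time 6, and Adamts1 of 2585 and 1177. Cnn2 read 2952 and 3371 at time 2, against 3520.0 and 3624 at time 0 in the same replicates. Ahr read 155 and 148 at time 2, below its 241 and 252 at time 6 in the same replicates.

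**Figure D4:**
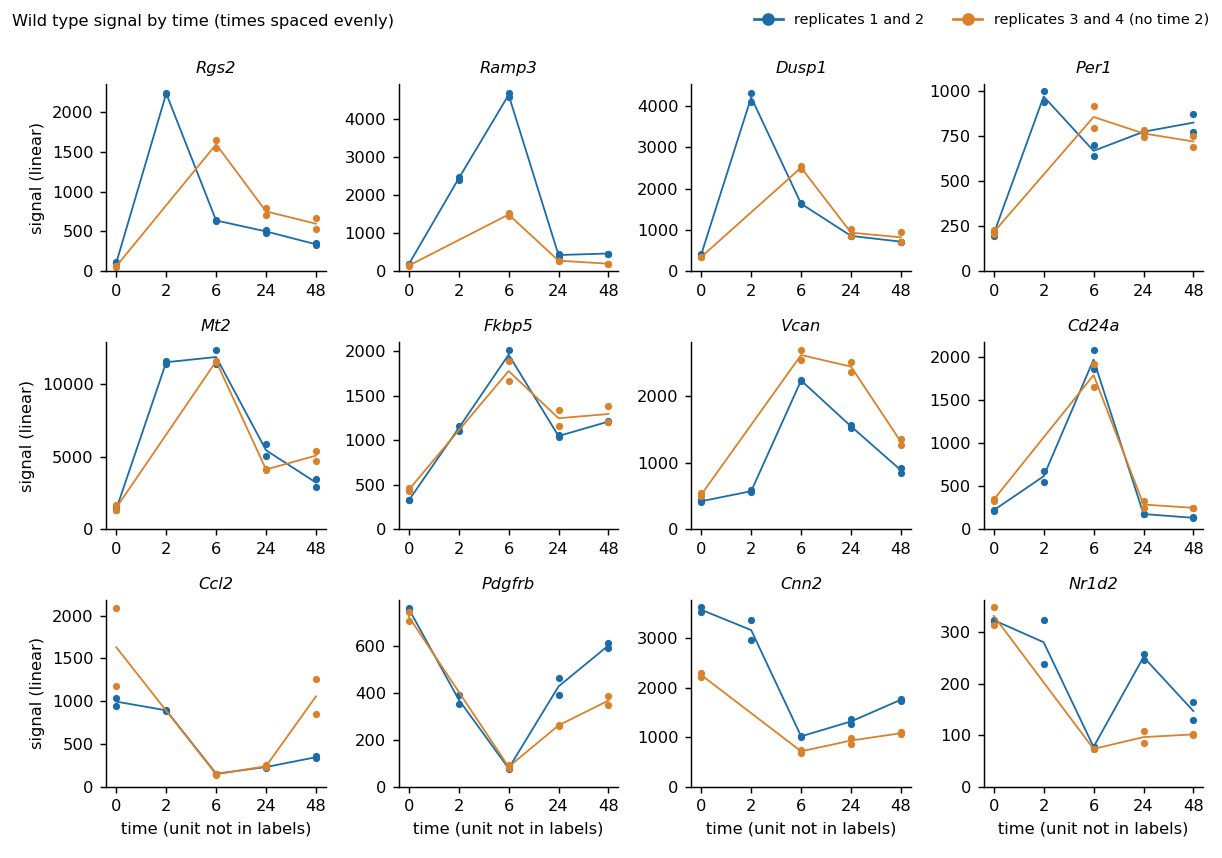
Wild type signal (linear axis from 0) of 12 genes at times 0, 2, 6, 24 and 48, spaced evenly, with points for arrays and lines through the means of replicates 1 and 2 (blue) and 3 and 4 (orange, no time 2). Cd24a and Ramp3 are highest at time 6 and much lower at time 24, Fkbp5 stays above its time 0 arrays, and Ccl2 and Pdgfrb have their lowest values at time 6.

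The same interval was measured in PKBa-/- cells, with 4 arrays at each time and their own time 0. There 1366 genes (18.4%) passed, 639 (8.59%) higher and 727 (9.78%) lower. Of the 886 genes of wild type, 563 (63.5%) passed in PKBa-/- in the same direction, which is 41.2% of the PKBa-/- genes, and 4 passed in the opposite one. The test of the difference between the 2 changes was passed by 41 genes (0.551%), and by 496 (6.67%) in the blocked fit. Of the 41, 21 had passed in wild type, of which 13 had not in PKBa-/-, 11 of them higher and 2 lower at time 6. Mt2, by contrast, rose by 3.11 ± 0.22 in PKBa-/- and by 3.02 in wild type, a difference of -0.08 ± 0.30 (adjusted p = 0.98).

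The 4 genes with opposite directions were Adamts1, Btg2, Ndrg4 and Rnf128. Adamts1 rose in wild type, as above, and fell in PKBa-/- from 1890.1, 1691, 1866 and 1748 to 390.3, 340.0, 389.6 and 408, a difference between the changes of 4.21 ± 0.23 (adjusted p = 2.4e-06). The PKBa-/- arrays were above those of wild type at time 0 and below them at time 6. The others had differences of 1.05 ± 0.21 (Btg2, adjusted p = 0.047), 1.33 ± 0.19 (Ndrg4, adjusted p = 0.0087) and 1.40 ± 0.26 (Rnf128, adjusted p = 0.035). The wild type rise of Ndrg4 did not pass without time 0 replicate 2 or 3 or time 6 replicate 1 or 3 (0.39 to 0.45, adjusted p = 0.051 to 0.071), and that of Btg2 without time 0 replicate 1 or 4 or time 6 replicate 2 or 4 (0.44 to 0.48, adjusted p = 0.053 to 0.084).

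Ramp3, the highest riser in wild type, read 122, 100.4, 77.1 and 133 at time 0 and 176, 162, 136 and 135 at time 6 in PKBa-/- (0.41 ± 0.45, adjusted p = 0.63), a difference of 3.36 ± 0.64 (adjusted p = 0.038). Hoxa5, a positional homeobox gene, rose in wild type (417, 466, 446 and 441 at time 0 and 1501, 1559, 1623 and 1306 at time 6; 1.68 ± 0.11, adjusted p = 5.0e-06). In PKBa-/- it read 109, 105, 101 and 92.5 at time 0 and 106, 79.0, 84.1 and 76.7 at time 6 (-0.18 ± 0.11, adjusted p = 0.29), a difference of 1.87 ± 0.15 (adjusted p = 1.2e-04). Tmem119 (2.01 ± 0.28, adjusted p = 0.008), Lcn2 (2.16 ± 0.36, adjusted p = 0.023) and Hspb1 (1.33 ± 0.23, adjusted p = 0.023) rose more in wild type. Values in brackets here and in the next sentence are differences between the changes of the genotypes. The change was also higher in wild type for the triglyceride-synthesis enzyme Dgat1 (1.57 ± 0.23, adjusted p = 0.0088), the protein C receptor Procr (1.58 ± 0.21, adjusted p = 0.008), the keratin Krt15 (1.83 ± 0.35, adjusted p = 0.042) and the mitochondrial fatty acid carrier enzyme Cpt1a (0.88 ± 0.16, adjusted p = 0.036), which were chosen after their values were seen. In PKBa-/- their changes of 0.03, 0.13, 0.05 and -0.17, in this order, did not pass. The 2 genes that fell in wild type and did not pass in PKBa-/- were Csf1 (-0.01 ± 0.17 in PKBa-/-, difference -1.57 ± 0.24, adjusted p = 0.014) and Vcam1 (-0.03 ± 0.17, difference -1.48 ± 0.24, adjusted p = 0.019).

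Other genes moved more without PKBa. Id1, an inhibitor of differentiation factors, read 1271, 1300.0, 1669 and 1563 at time 0 and 1409, 1538, 1561 and 1515 at time 6 in wild type (0.06 ± 0.13, adjusted p = 0.80) and rose by 2.06 ± 0.13 in PKBa-/- (difference -1.99 ± 0.19, adjusted p = 3.5e-04), and Id3 was similar (-1.45 ± 0.25, adjusted p = 0.028). Vdr rose by 3.49 ± 0.25 in PKBa-/- against 0.87 ± 0.25 in wild type (difference -2.62 ± 0.35, adjusted p = 0.008). Slc40a1, the iron exporter, fell by 2.75 ± 0.18 against -0.50 ± 0.18 (difference 2.26 ± 0.25, adjusted p = 0.0019), and Adamts5 fell by 2.62 ± 0.15 against -0.88 ± 0.15 (difference 1.74 ± 0.22, adjusted p = 0.0046). At time 0 Slc40a1 had a mean of 215 in wild type and 1088 in PKBa-/-, Id1 of 1451 and 185, and Vdr of 222 and 222. Whether the starting level bears on the change was not tested.

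**Figure D5:**
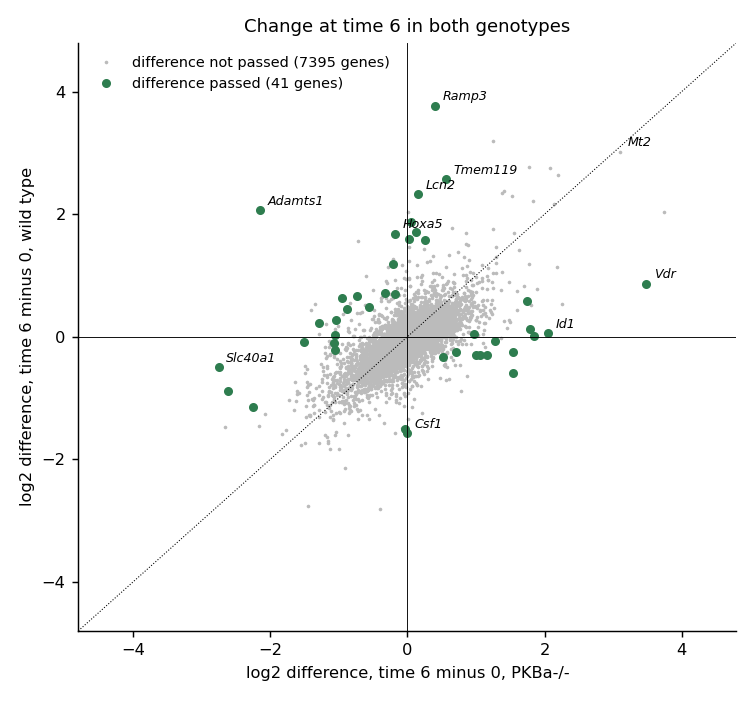
Log2 difference between time 6 and time 0 of each tested gene in PKBa-/- (horizontal axis) and wild type cells (vertical axis), with the line of equal change dotted. Green points are the 41 genes whose change differed between the genotypes; Ramp3, Tmem119 and Hoxa5 lie above the line near 0 in PKBa-/-, Adamts1 in the quadrant of opposite signs and Vdr and Id1 to the right.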

How the data were processed

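The deposited intensities are linear, from 8.62 to 19337, for 22690 probe sets on 36 arrays. The authors' summarisation and normalization are not given in the sources used here. Per the labels' protocols, total RNA was made into biotinylated cRNA. Probe sets with 1 gene in the platform annotation were used (20380; 691 had several genes, 1555 none and 64 were controls), symbols were updated by gene ID for 20351 of them, and the brightest probe set stood for each of the 12393 genes. The 40% of genes with the lowest mean log2(signal + 32) were left out, which left 7436 with a mean that corresponds to a signal of 123 or more.

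The means of 10 groups were fitted to 18 pair averages in limma (version 3.58.1, R 4.3.3) with empirical Bayes moderation (8 residual and 4.24 prior degrees of freedom). Its test is two-sided, with Benjamini and Hochberg adjustment over all genes tested, and a gene passed at an adjusted p under 0.05. Pair averages were made the main values because pairs share deviations: limma estimated a correlation of 0.66 within pairs. Fits of pair averages and of single arrays were tested on simulated data, in which arrays of a pair shared a deviation drawn separately for each pair. Pair averages recovered 37.3% of 1.5-fold changes and 88.1% of 2-fold changes, with 12 false calls among 7436 genes. Single arrays as replicates gave 464 false calls. Deviations shared between times 0 and 6 were not simulated, and the blocked fit was not tested in this way. Replicate sets pair the arrays between times 0 and 6, hence the blocked fit. Residual correlations of arrays of the same number were 0.651 to 0.705 in wild type and 0.376 to 0.593 in PKBa-/-. The best match was of the same set in both genotypes, but not always of the same number.

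The comparison, the 34 gene lists, the markers and the motifs were chosen with earlier results of these data known. Named genes are the 14 highest and 14 lowest differences that passed with 1 sign in both replicate sets and no overlap of arrays, up to 4 passed members of each list, 12 genes fixed by name and the 6 smallest p-values of the difference between genotypes. Other members given with values were chosen after their values were seen. Of 105 further probe sets of the named genes 103 had the sign of the one used, though the size of the change could be much smaller, as for Srf. Alternatives were other offsets, filters and probe set rules, quantile normalization, an intensity trend, arrays as replicates, blocks, each replicate set alone, the compared groups alone and leaving out each array.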

Additional observations from a re-analysis of the deposited data

Results flagged for a closer look

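In 280 groups of 4 arrays, 1 for each named gene at each of the 2 times, 7 held an array far from the other 3 by Dixon's test. Chance flags about 1 in 20 groups of 4 independent values. These arrays come in pairs that are alike, so the rate for them is not known. At time 0 these were Ddit3 (724 in replicate 4, the others 803 to 807), Tln1 (1584 in replicate 3, the others 1830.4 to 1867), Chac1 (566 in replicate 4, the others 635 to 647), Nr3c1 (501 in replicate 4, the others 475 to 477) and Fos (172 in replicate 1, the others 187 to 188). At time 6 they were Ccn4 (667 in replicate 1, the others 613 to 618) and Hspa5 (8964 in replicate 3, the others 7861 to 8018). Hspa5 did not pass without that array (0.42, adjusted p = 0.053).

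The change between time 0 and time 6 differed between wild type and PKBa-/- cells, by the test of the difference itself in limma, for 20 of the named genes. Wild type minus PKBa-/-, on the log2 scale, the difference was 4.21 for Adamts1, 3.36 for Ramp3, 2.26 for Slc40a1, 2.16 for Lcn2 and 2.01 for Tmem119. It was 1.87 for Hoxa5, 1.83 for Krt15, 1.74 for Adamts5, 1.58 for Procr, 1.57 for Dgat1, 1.40 for Rnf128, 1.33 for Hspb1, 1.33 for Ndrg4, 1.05 for Btg2 and 0.88 for Cpt1a. It was negative for Vdr (-2.62), Id1 (-1.99), Csf1 (-1.57), Vcam1 (-1.48) and Id3 (-1.45).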

How the results depend on the processing

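The counts of genes that passed moved most with how the arrays of a pair and the replicate sets were treated. In the order passed, higher, lower and different between genotypes, the pair averages gave 886, 314, 572 and 41. With the replicate set as a block they gave 2393, 957, 1436 and 496, and arrays with the replicate block 3244, 1430, 1814 and 1018. Arrays as replicates gave 2700, 1160, 1540 and 655. Replicates 1 and 2 alone gave 3924, 1774, 2150 and 2015, and replicates 3 and 4 alone 2429, 1002, 1427 and 751. The fits of 1 set alone took the arrays of a pair as replicates, so their p-values measure only the spread within pairs. Arrays of the compared groups alone gave 2709, 1206 and 1503, and could give no difference between genotypes. With a random pair effect 173 genes differed between genotypes, and after quantile normalization 76 did and 531 rose. Leaving out each array in turn gave 829 to 892 passed, 299 to 324 higher, 530 to 570 lower and 36 to 46 different between genotypes. Other offsets, filters, probe set rules and an intensity trend gave 678 to 1002 passed genes. Of 140 named genes 4, none of which passed, changed sign under an alternative. Cebpa was at 0.24 in replicates 1 and 2 alone, where it passed on the spread within pairs (adjusted p = 0.024). It also changed sign after quantile normalization (0.01) and without time 0 replicate 1 or 4 or time 6 replicate 4 (0.0034 to 0.05). In replicates 3 and 4 alone Socs2 was at -0.24, Id1 at -0.07 and Akt1 at 0.02. Without a filter 16 named genes no longer passed, and under the block none. Genes close to the background of the arrays, Pparg and Klf15 among them, were left out of the main fit by the filter on signal.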

Other observations

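Some genes outside the lists were chosen after their values were seen and stand for no group. Ugdh, which makes UDP-glucuronate, read 825, 816, 1101 and 1010.2 at time 0 and 3627, 2939, 3319 and 3071 at time 6 (1.76 ± 0.20, adjusted p = 3.2e-04), Gfpt2, which starts the hexosamine pathway, rose by 1.02 ± 0.16 (adjusted p = 0.0017), and Gmppb, which makes GDP-mannose, by 1.02 ± 0.18 (adjusted p = 0.004). The hyaluronan synthase Has2 had a difference of 0.53 ± 0.40 (adjusted p = 0.45). Vasp, which promotes actin filament growth, read 933, 902, 699 and 762 at time 0 and 327, 333, 342 and 338 at time 6 (-1.21 ± 0.14, adjusted p = 3.1e-04), Fermt2, which activates integrins, fell by 1.05 ± 0.17 (adjusted p = 0.0025), Amotl2 fell by 1.06 ± 0.13 (adjusted p = 5.0e-04) and the coactivator Wwtr1 (TAZ) fell by 1.06 ± 0.20 (adjusted p = 0.0062). The growth factor Hbegf fell by 1.01 ± 0.18 (adjusted p = 0.0043), and the acute-phase inhibitor Serpina3n rose by 1.77 ± 0.22 (adjusted p = 5.0e-04).

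Socs2, a feedback inhibitor of cytokine receptors, went opposite ways in the replicate sets, with a log2 difference of 2.03 in replicates 1 and 2 and -0.24 in replicates 3 and 4. It read 249.8, 265, 1006 and 868 at time 0 and 1144, 1146, 779 and 789.9 at time 6, and did not pass (adjusted p = 0.23).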
